A study of Mus musculus with 10 samples.

Results

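The genes described here encode the receptors of the interleukin-6 (IL-6) family and the STAT3 signalling that these receptors start, measured in the liver of tumour-bearing mice with and without cachexia. The 10 genes, Il6ra, Il6st, Osmr, Lifr, Jak1, Stat3, Socs3, Cebpb, Cebpd and Il1rn, were taken by name from the 43629 genes of the count table. All 10 were among the 14143 genes that had enough counts to be tested.

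IL-6 family cytokines bind receptors on the hepatocyte surface that share the signal-transducing subunit gp130. The bound receptor activates Janus kinases, which phosphorylate STAT3, and phosphorylated STAT3 enters the nucleus and turns on the acute-phase genes, whose products are secreted plasma proteins of inflammation. C/EBP transcription factors act on many of the same acute-phase genes, and SOCS3 closes the loop by blocking the receptor and its kinases. RNA levels do not measure the phosphorylation of STAT3.

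RNA-seq was done on livers of 10 adult male KL mice, an inducible, genetically engineered model of lung cancer that carries Lkb1 f/f alleles on a background crossed back to FVB. At 12 to 20 weeks of age all of them received adenovirus through the nose that carried Cre recombinase under the CMV promoter, so every mouse had the same alleles and the same virus, and no liver of a tumour-free mouse was analysed here. The 5 mice with cancer anorexia-cachexia syndrome (CACS) had lost more than 15% of their peak weight, and the 5 without it (NCACS) had not. The mice are numbered as in the labels, 11 to 15 for NCACS and 16 to 20 for CACS. Weight change was between -14 and -3% in NCACS mice (mean of -8% ± 4.64, SD, n = 5) and between -33 and -29% in CACS mice (-30.6% ± 1.82, SD, n = 5).

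The NCACS libraries held 31945328 to 38306888 counts in all and the CACS libraries 31459179 to 40746178. Levels below are CPM, counts scaled to library size, after TMM normalization, a scaling that corrects for differences in library composition, and a log2 change is the log2 of the CACS over the NCACS level, given with its standard error (SE). Over all 14143 genes tested, the quasi-likelihood test of edgeR with Benjamini-Hochberg adjustment placed 3.80% past an adjusted p of 0.05, with 1.89% higher and 1.92% lower in CACS livers. As a check of the labelled tissue, 7 hepatocyte markers, albumin and Hnf4a among them, summed to between 65088 and 114378 CPM in NCACS and between 105200 and 132390 CPM in CACS livers. NCACS mouse 15 stood apart in the circadian clock gene Dbp, at 1.27 CPM against 52.1 to 82.9 CPM in the other 4 NCACS livers and 18.8 to 58.8 CPM in CACS livers. Lifr was also highest in this liver, and its log2 change and slope on weight change are given with and without NCACS mouse 15. Bulk RNA cannot tell fewer cells of a type from less RNA per cell.

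Of the 10 genes, 1 passed the threshold. Lifr, which encodes the receptor for leukaemia inhibitory factor, fell in CACS livers. By sign, 8 of the 10 log2 changes were above 0 and 2, those of Lifr and Il1rn, were below, and the median was 0.19 against -0.01 for all genes tested. An unadjusted p under 0.05 was reached by 6 of the 10 genes, where 21.6% of all genes tested reached it. The groups did not overlap for 1 of the 10, Lifr, and for 7.07% of all genes tested. DESeq2, an alternative count test, called 3 of the 10 (Lifr, Il1rn and Cebpd) and 9.80% of all 14143 genes, those without an adjusted p included.

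**Figure D1:**
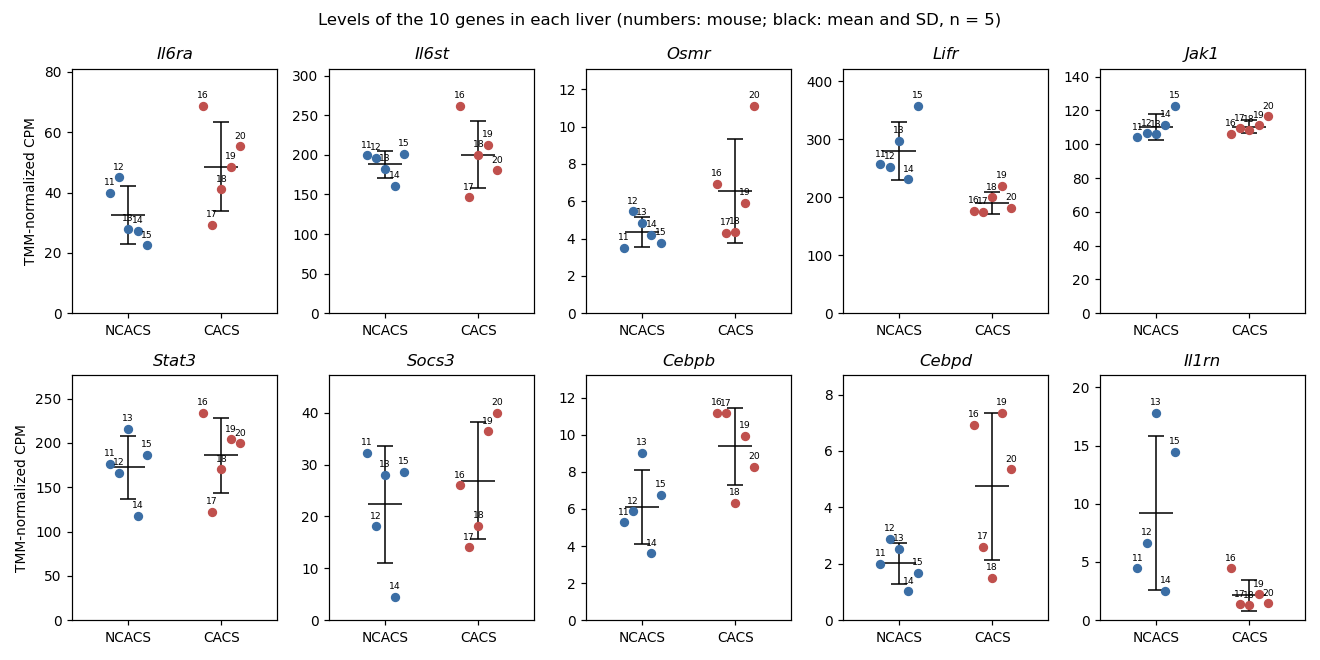
TMM-normalized CPM (y axis, from 0) of each of the 10 genes in the 5 NCACS (blue) and 5 CACS (red) livers. Points are livers with the mouse number, and black lines and bars are the mean and SD. Lifr is the panel in which the groups are apart, with every CACS liver at or under 219.7 CPM and every NCACS liver at or above 231.2 CPM.

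The promoter sequences of 9 of the 10 genes were found in RefSeq for GRCm38.p6, the build of the deposited counts, and Cebpd had no entry. The 250 bases before each start were searched on both strands for the STAT motif TTCNNNGAA, whose reverse complement is itself, and for the C/EBP motif TTGCNNAA (TTNNGCAA on the other strand). The STAT motif was in 7.02% of all 32851 windows of this length and in 1 of the 12 windows of these genes, that of Socs3. The C/EBP motif was in 9.56% of all windows and in none of the 12. The Socs3 window is shown because it holds the motif of the factor whose feedback gene it is, with the motif in capitals, its first base 154 bases before the start. The Lifr windows are shown because Lifr is the gene that passed the threshold and RefSeq gives it 2 starts, which counts per gene cannot tell apart. No motif was found in either of them, and none of their letters are in capitals. The Socs3 window and both Lifr windows lie inside the gene spans given below, so the outermost starts of those spans were not searched. All are written 5′ to 3′ on the strand of the gene, Socs3 on the reverse and Lifr on the forward strand.
Socs3, chr11:117969367-117969616: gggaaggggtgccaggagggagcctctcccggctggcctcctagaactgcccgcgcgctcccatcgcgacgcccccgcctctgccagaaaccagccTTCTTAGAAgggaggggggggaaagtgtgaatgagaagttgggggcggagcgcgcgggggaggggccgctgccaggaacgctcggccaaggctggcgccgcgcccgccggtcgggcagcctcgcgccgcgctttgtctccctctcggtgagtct
Lifr, upstream start, chr15:7129322-7129571: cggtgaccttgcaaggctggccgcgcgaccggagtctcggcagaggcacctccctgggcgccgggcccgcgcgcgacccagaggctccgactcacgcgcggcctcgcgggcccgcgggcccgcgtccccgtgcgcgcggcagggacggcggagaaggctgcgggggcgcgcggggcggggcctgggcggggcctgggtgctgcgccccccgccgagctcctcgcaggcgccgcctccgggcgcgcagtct
Lifr, downstream start, chr15:7140292-7140541: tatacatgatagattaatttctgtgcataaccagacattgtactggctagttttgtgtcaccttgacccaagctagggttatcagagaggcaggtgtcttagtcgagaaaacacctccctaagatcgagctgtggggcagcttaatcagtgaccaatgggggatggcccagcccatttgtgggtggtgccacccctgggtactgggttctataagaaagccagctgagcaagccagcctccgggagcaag
The window of the upstream Lifr start was 82.4% G or C and that of the downstream start 50.8%. A motif match describes letters, and binding was not measured.

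Per kilobase of exon, the most abundant of the 10 genes in NCACS livers was Lifr, with a mean of 25.9 CPM per kb, followed by Stat3 (18.1), Il6st (16.96) and Jak1 (15.2). Socs3 (7.71), Cebpb (4.06) and Il6ra (3.77) came next, and Il1rn (1.66), Cebpd (0.539) and Osmr (0.359) were the lowest on this scale. The length covers the exons of all annotated transcripts of a gene, and which transcripts the livers made was not measured. The order among neighbours was within the spread between livers, since the ranges of neighbouring genes overlapped everywhere in the NCACS order but between Jak1 and Socs3. In CACS livers Lifr stood at 17.7 CPM per kb, below the means of Stat3 (19.5) and Il6st (18.04), with ranges that overlapped those of both. Cebpd, at 1.27 CPM per kb, was above Osmr (0.539) and Il1rn (0.389), which became the lowest.

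**Figure D2:**
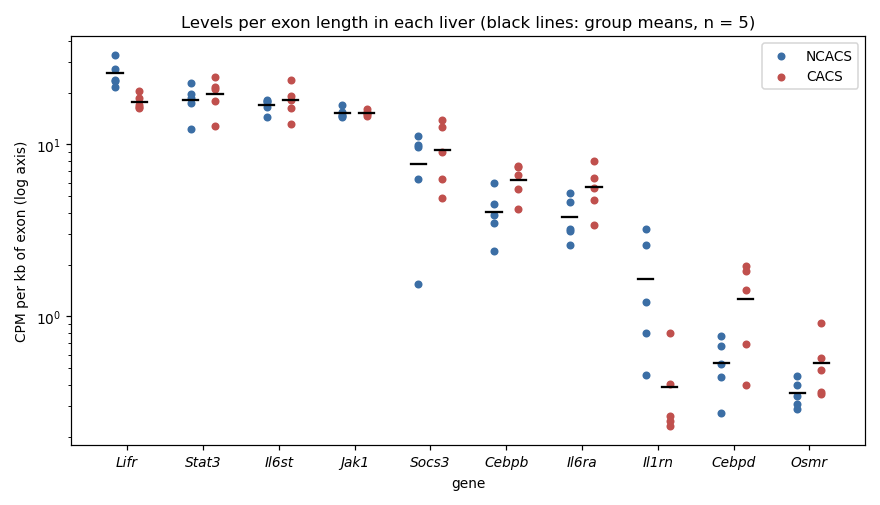
CPM per kilobase of summed exon (y axis, log scale) of the 10 genes, ordered by their NCACS mean. Points are livers (NCACS blue, CACS red, n = 5 each) and black lines are group means. The means of the receptor subunits Lifr and Il6st, with Stat3 and Jak1, lie above those of the other genes. In CACS livers the highest Socs3 value (13.8) is above the lowest of Stat3 (12.9) and Il6st (13.2). Osmr and Cebpd are near the bottom, with Il1rn lowest in CACS livers by its mean.

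Among the receptors, Il6st (ENSMUSG00000021756, chromosome 13, 112464070 to 112510086, forward strand of GRCm38) encodes gp130, the subunit that IL-6 family receptors share. Its level was 199.6, 196.5, 182.6, 161.0 and 201.4 CPM in NCACS mice 11 to 15 and 261.8, 146.2, 200.1, 212.6 and 180.5 CPM in CACS mice 16 to 20. CACS livers held both the highest and the lowest value, and their coefficient of variation was 21.3% against 8.99% in NCACS livers. Il6st had a log2 change of 0.09 (SE 0.143, adjusted p = 0.767, the quasi-likelihood test of edgeR with Benjamini-Hochberg adjustment), and it was -0.02 without CACS mouse 16.

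Il6ra (ENSMUSG00000027947, chromosome 3, 89864059 to 89913196, reverse strand) encodes the subunit that binds IL-6 itself. Levels were 40.0, 45.0, 27.9, 27.3 and 22.5 CPM in NCACS mice 11 to 15 and 68.7, 29.4, 41.1, 48.5 and 55.3 CPM in CACS mice 16 to 20. CACS mice 16, 19 and 20 were above every NCACS mouse, and CACS mice 17 and 18 lay within the NCACS range. The log2 change of 0.58 (SE 0.238, unadjusted p = 0.0319) had an adjusted p of 0.185 in the quasi-likelihood test of edgeR over all genes, and a two-sided exact permutation test over the 252 assignments of the mice gave p = 0.0714. It was 0.42 to 0.72 when any 1 mouse was left out. Il6ra overlaps the antisense gene Gm42809 on the opposite strand.

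Osmr (ENSMUSG00000022146, chromosome 15, 6813577 to 6874969, reverse strand) encodes the oncostatin M receptor. Its level was 3.50, 5.45, 4.85, 4.19 and 3.77 CPM in NCACS mice 11 to 15 and 6.95, 4.30, 4.37, 5.92 and 11.1 CPM in CACS mice 16 to 20. The value of CACS mouse 20 was the highest, and CACS mice 17 and 18 lay among the NCACS mice. The Osmr log2 change was 0.58 (SE 0.257, adjusted p = 0.213 in edgeR) and 0.31 without CACS mouse 20.

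Lifr (ENSMUSG00000054263, chromosome 15, 7090614 to 7197489, forward strand) is the partner of gp130 in several receptors of the family. Levels were 256.8, 252.5, 297.2, 231.2 and 357.6 CPM in NCACS mice 11 to 15 and 176.7, 174.7, 200.2, 219.7 and 182.1 CPM in CACS mice 16 to 20. Every CACS liver was below every NCACS liver, with NCACS mouse 15 well above the rest of its group. Lifr was 0.683 times as high in CACS livers (log2 change -0.55, SE 0.130, adjusted p = 0.0414, the quasi-likelihood test of edgeR with Benjamini-Hochberg adjustment). A two-sided exact permutation test gave p = 0.00794, the smallest that 5 against 5 mice allow, and the adjusted p was 0.00223 in DESeq2 and 0.0427 in limma-voom.

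The Lifr call was close to the threshold. With each mouse left out the log2 change stayed between -0.61 and -0.44, the latter without NCACS mouse 15. The edgeR adjusted p was then between 0.0495 and 0.0907, under 0.05 without NCACS mouse 14 and above it when any of the other 9 mice was left out. Without NCACS mouse 15, the liver with the highest Lifr and a Dbp level apart from its group, it was 0.0678. The summed level of 16 clock genes had a group-centred Pearson r of -0.76 with Lifr over 10 livers. That sum ran from 401.8 to 1021 CPM in NCACS and from 756 to 963 CPM in CACS livers, and is weighted to the most abundant clock genes. The r was not computed without NCACS mouse 15, and the part of the clock in the level of Lifr was not tested.

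**Figure D3:**
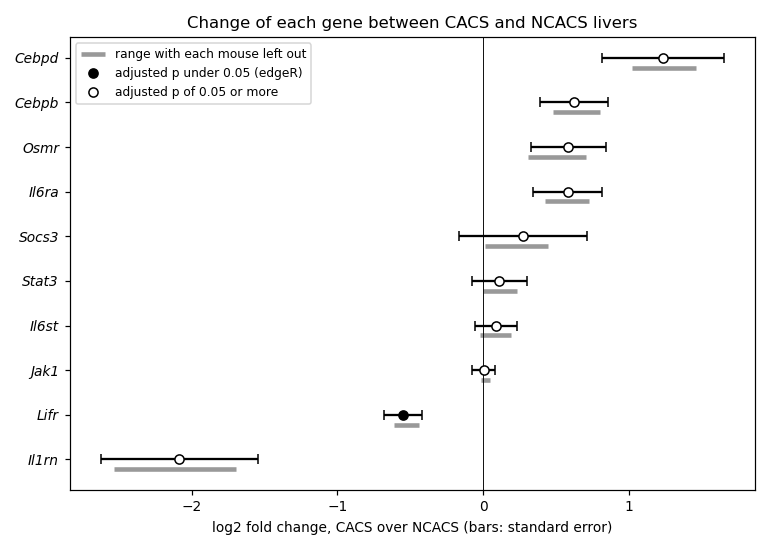
Log2 change of each gene, CACS over NCACS (x axis), with its standard error (black bars) and the range over the 10 fits that leave out 1 mouse each (grey). The filled point marks the gene with an edgeR adjusted p under 0.05, Lifr at -0.55. Cebpd, at 1.23, is highest and Il1rn, at -2.08, is lowest, both with open points and wide standard errors.

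Jak1 (ENSMUSG00000028530, chromosome 4, 101152367 to 101265282, reverse strand) encodes the Janus kinase most tied to gp130. Its level was 104.1, 106.4, 105.9, 111.5 and 122.7 CPM in NCACS mice 11 to 15 and 106.1, 109.5, 108.4, 111.3 and 116.6 CPM in CACS mice 16 to 20. No CACS liver lay outside the NCACS range, and the coefficients of variation, 6.86% in NCACS and 3.61% in CACS livers, were the lowest of the 10 genes in each group. Jak1 had a log2 change of 0.00 (SE 0.0774, adjusted p = 0.986 in edgeR), and its sign turned under 8 of 17 alternatives. Jak1 overlaps Raver2 and Gm24468 on the opposite strand and the pseudogene Gm12785 on its own strand.

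Stat3 (ENSMUSG00000004040, chromosome 11, 100885098 to 100939540, reverse strand) encodes the transcription factor of the pathway. Levels were 176.5, 166.1, 215.6, 117.7 and 186.4 CPM in NCACS mice 11 to 15 and 234.0, 122.5, 170.2, 204.2 and 199.6 CPM in CACS mice 16 to 20. Each group had 1 low liver, NCACS mouse 14 and CACS mouse 17, and the ranges nearly coincided. Stat3 had a log2 change of 0.11 (SE 0.187, adjusted p = 0.782 in edgeR; exact permutation p = 0.611) and lay between 0.00 and 0.23 with each mouse left out. Stat3 overlaps Stat5a on the opposite strand, and the strand setting of the counting is not given in the sources used here.

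Socs3 (ENSMUSG00000053113, chromosome 11, 117966079 to 117970047, reverse strand) is the feedback inhibitor that STAT3 induces. Its level was 32.3, 18.1, 28.0, 4.46 and 28.6 CPM in NCACS mice 11 to 15 and 25.96, 14.03, 18.2, 36.4 and 40.0 CPM in CACS mice 16 to 20. NCACS mouse 14 was far below the other 9 livers, and CACS mice 19 and 20 were the highest. The Socs3 log2 change was 0.27 (SE 0.439, adjusted p = 0.769 in edgeR) and 0.01 without NCACS mouse 14.

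Cebpb and Cebpd encode C/EBP beta and C/EBP delta, which bind the promoters of acute-phase genes. Cebpb (ENSMUSG00000056501, chromosome 2, 167688915 to 167690418, forward strand) was at 5.28, 5.88, 9.02, 3.61 and 6.76 CPM in NCACS mice 11 to 15 and at 11.2, 11.2, 6.33, 9.94 and 8.27 CPM in CACS mice 16 to 20. CACS mice 16, 17 and 19 were above every NCACS mouse, and CACS mice 18 and 20 were below NCACS mouse 13. The log2 change was 0.62 (SE 0.233, unadjusted p = 0.0210, adjusted p = 0.149 in edgeR), with a two-sided exact permutation p of 0.0476.

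Cebpd (ENSMUSG00000071637, chromosome 16, 15887286 to 15891031, forward strand) was at 1.99, 2.89, 2.52, 1.02 and 1.67 CPM in NCACS mice 11 to 15 and at 6.92, 2.60, 1.501, 7.35 and 5.35 CPM in CACS mice 16 to 20. The CACS livers were split, with mice 16, 19 and 20 above all NCACS livers and mice 17 and 18 within their range. The log2 change of 1.23 (SE 0.419) had an adjusted p of 0.119 in edgeR, 0.0344 in DESeq2 and 0.210 in limma-voom. Counts were few, 34 to 277 per liver. Cebpb overlaps Tmem189 and Cebpd overlaps Spidr on the opposite strand.

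Il1rn (ENSMUSG00000026981, chromosome 2, 24336853 to 24351494, forward strand) encodes the interleukin-1 receptor antagonist, a secreted inhibitor of IL-1 that the liver makes as an acute-phase protein. Its level was 4.45, 6.67, 17.8, 2.53 and 14.5 CPM in NCACS mice 11 to 15 and 4.45, 1.36, 1.27, 2.23 and 1.46 CPM in CACS mice 16 to 20. CACS mice 17 to 20 were below every NCACS mouse, and CACS mouse 16 lay within the NCACS range. The log2 change was -2.08 (SE 0.539, unadjusted p = 0.00237), the furthest from 0 of the 10 genes. It did not pass the threshold in the quasi-likelihood test of edgeR over all genes (adjusted p = 0.0551), with a two-sided exact permutation p of 0.0159. The adjusted p was 0.00913 in DESeq2, 0.109 in limma-voom, and between 0.0437 (edgeR without NCACS mouse 14, a value that passes) and 0.117 with each mouse left out.

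Within each group, the same livers were often low or high for several of these genes. NCACS mouse 14, with the smallest weight change of -3%, had the lowest value of its group for 7 of the 10 genes (Il6st, Lifr, Stat3, Socs3, Cebpb, Cebpd and Il1rn). CACS mouse 17 was lowest of its group for 6 genes, among them Il6st, Stat3 and Socs3, and CACS mouse 16 was highest for 5 genes, among them Il6st, Stat3 and Il1rn. After each group's mean log2 CPM had been subtracted, the 45 pairs of genes had a median Pearson correlation of 0.49 over the 10 livers. The correlation was 0.84 between Cebpb and Il1rn and 0.82 between Stat3 and Socs3, and 0.79 between Stat3 and Il6st. Jak1 was below 0 with Il6ra, Il6st, Stat3, Cebpb and Cebpd. These correlations describe 10 livers and carry no test, and the genes of a liver share its library and the composition of that library.

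**Figure D4:**
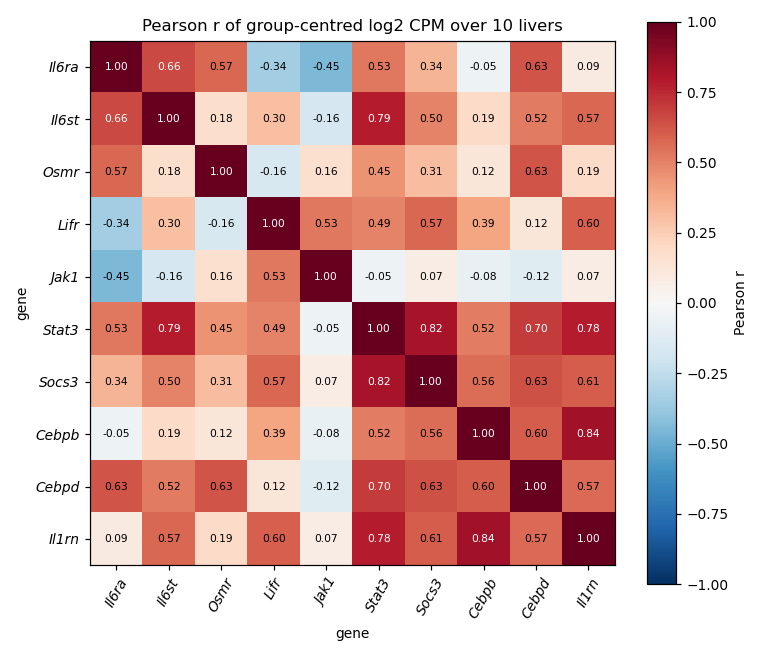
Pearson correlation of group-centred log2 CPM over 10 livers for each pair of the 10 genes (both axes), with red above 0 and blue below. The highest values are those of Cebpb with Il1rn (0.84) and of Stat3 with Socs3 (0.82), Il6st (0.79) and Il1rn (0.78). Jak1 is near or below 0 with most of the other genes and at 0.53 with Lifr.

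Among 9235 genes whose mean reached 5 CPM, the one whose group-centred pattern was most like that of Stat3 was Saa1, an acute-phase serum amyloid A gene (r = 0.97 over 10 livers), followed by Itih3 and Fbxw4 (both 0.96). Saa1 was at 1905, 3017, 13592, 47.9 and 3431 CPM in NCACS mice 11 to 15 and at 899.1, 12.5, 131.3, 333.6 and 602.1 CPM in CACS mice 16 to 20. The livers low in Stat3 were those low in Saa1 within each group, NCACS mouse 14 and CACS mouse 17, whereas Saa1 between groups had a log2 change of -3.47 (SE 1.20, adjusted p = 0.124 in edgeR and 0.00780 in DESeq2) and Stat3 one of 0.11.

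The genes most like Socs3 were Zhx2 (r = 0.97), Vav2 (0.95) and Lims2 (0.93), and those most like Osmr were Tagap1 (0.94), Tia1 (0.93) and Nrbp2 (0.89). Cebpd was matched best by Myo18a (0.95), Stk10 (0.91) and Lrp1 (0.90), and Il1rn by Slc37a1 (0.96), Nub1 (0.95) and Kdm4a (0.94). With so many genes searched over 10 livers, high values arise readily, and nothing is read from them about function.

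The labels give the weight change of each mouse, so the slope of each gene on weight change was fitted within the groups by edgeR. No gene of the 10 passed the threshold over all genes (0.0141% of genes did), and 2 of the 10, Il1rn and Lifr, had an unadjusted p under 0.05, against 7.62% of all genes. In NCACS mice Lifr was higher with greater loss, from 231.2 CPM at -3% to 357.6 CPM at -14%, and Il1rn was at 2.53 CPM at -3% and at 17.8 and 14.5 CPM at -11 and -14%. For each percent of weight change, the slope of Il1rn was -0.24 on the log2 scale (SE 0.0558, adjusted p = 0.230 in edgeR), and between -0.29 and -0.20 with each mouse left out. The slope of Lifr was -0.05 (adjusted p = 0.497 in edgeR) and -0.03 without NCACS mouse 15, which had both the greatest loss of its group and the Dbp level that stood apart. Both genes had their lowest values in CACS mice, which had lost the most, so the direction within NCACS mice was opposite to that between the groups. The CACS mice span only 4 percentage points of weight change.

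**Figure D5:**
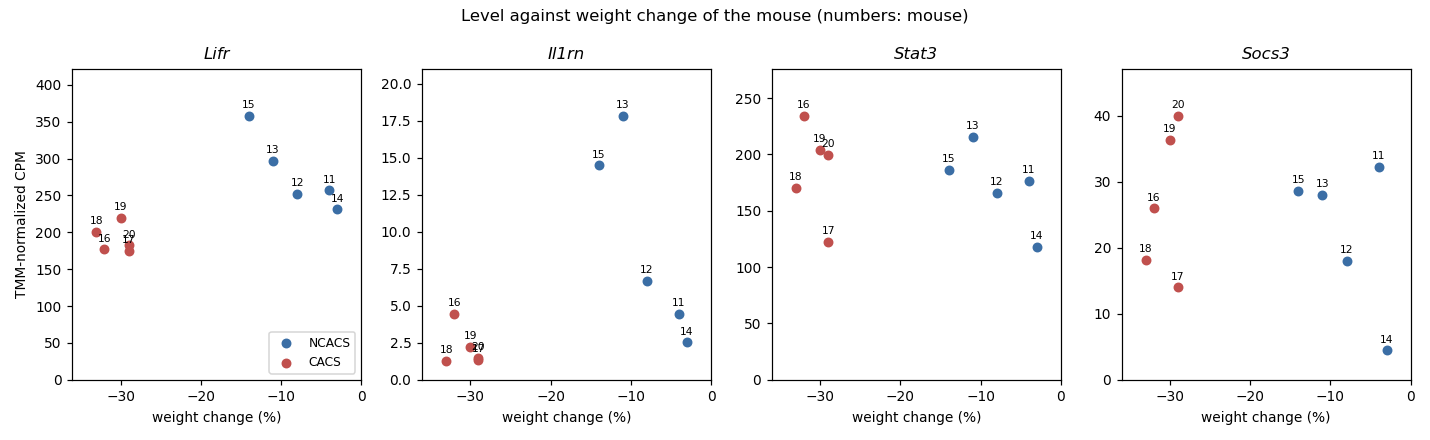
TMM-normalized CPM (y axes, from 0) of Lifr, Il1rn, Stat3 and Socs3 against the weight change of the mouse in percent (x axis) for NCACS (blue) and CACS (red) livers, with mouse numbers. Lifr and Il1rn are higher in the NCACS mice at -11 and -14% than in those at -3 and -4%, and lower in the CACS mice at -29 to -33%.

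The other parts of the pathway were described from lists of genes written by hand. Of 11 ligands of the family, 3 passed the filter on low counts and none the threshold (edgeR, 0 at an unadjusted p under 0.05 and 0 with DESeq2). Il6 had 0 to 3 counts per liver, Il11 0 to 4, Lif 0 to 10 and Osm 0 to 11, so differences in these ligands were not detectable at this depth. The 2 tested ligands with the smallest p were Ctf1, cardiotrophin 1, with a log2 change of 0.13 (adjusted p = 0.684), and Clcf1, with 0.24 (adjusted p = 0.758, both from edgeR). Neither value was steady, at 0.07 (without NCACS mouse 14) to 0.29 (without NCACS mouse 13) for Ctf1 and 0.05 (without NCACS mouse 11) to 0.51 (without NCACS mouse 12) for Clcf1. Of 4 further receptors, 3 were tested and none passed. An unadjusted p under 0.05 was reached by 2 of them and by 21.6% of all genes tested. These were Il11ra1, the IL-11 receptor, with a log2 change of -0.25 (adjusted p = 0.208), and Cntfr, the receptor for ciliary neurotrophic factor, with 0.87 (adjusted p = 0.225, both from edgeR). Without CACS mouse 16 the log2 change of Cntfr was 0.52.

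Of 9 other kinases and STATs, 8 were tested and 1 passed. Over all genes tested, 3.80% passed, and the groups of 7.07% did not overlap. Tyk2, the Janus kinase that also serves interferon and IL-12 receptors, fell from 32.7 ± 2.82 to 24.4 ± 2.03 CPM (SD, n = 5 each) with no overlap between groups. Its log2 change was -0.42 (SE 0.0900, adjusted p = 0.0314 in edgeR), and the call was kept without NCACS mouse 15 or CACS mouse 19 and lost without any of the other 8 mice (adjusted p up to 0.0715). Tyk2 fell while Jak1, described above, had a log2 change of 0.00. The difference between these genes was not tested.

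Of 15 inhibitors other than Socs3, 14 were tested and 1 passed, against 2 with DESeq2 (Pias1 the other) and 2 without NCACS mouse 11 (Cish the other). The share of all genes tested was 3.80% in edgeR and 9.80% in DESeq2. Socs2, which is induced by growth hormone through STAT5 and damps that signal, rose in every CACS liver. It was at 14.4, 9.16, 8.99, 4.28 and 8.09 CPM in NCACS mice 11 to 15 and at 82.5, 47.1, 79.8, 54.5 and 47.1 CPM in CACS mice 16 to 20. Its log2 change of 2.79 (SE 0.292, adjusted p = 0.00203 in edgeR) passed with any 1 mouse left out.

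Of 5 other C/EBP family genes, Cebpg, a partner of the other C/EBP proteins, rose from 52.2 ± 2.66 to 73.1 ± 9.74 CPM (SD, n = 5 each), with no overlap. Its log2 change was 0.49 (SE 0.0986, adjusted p = 0.0273 in edgeR), and the call was kept without NCACS mouse 15 or CACS mouse 17, 18 or 20 and lost without any of the other 6 mice. The other 4 did not pass. Of all genes tested, 3.80% passed in edgeR, and the groups of 7.07% did not overlap. Of 12 genes of the IL-1 family, 9 were tested and 1 passed. Il1r1, the signalling receptor that the product of Il1rn blocks, rose from 64.7 ± 16.04 to 151 ± 57.7 CPM (SD, n = 5 each; log2 change 1.22, SE 0.261, adjusted p = 0.0318 in edgeR). Its call was kept without NCACS mouse 12 or 13 or CACS mouse 17 or 18, and lost without any of the other 6 mice. CACS mouse 17, at 77.8 CPM, lay within the NCACS range, and CACS mouse 16, at 238.0 CPM, was the highest.

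Of 38 genes known as acute-phase or STAT3 targets, 37 were tested, 13 with a log2 change above 0 and 24 below, with a median of -0.07 against -0.01 for all genes. DESeq2 called 4 of them, Agt and Pim3 higher and Saa1 and Saa2 lower, and edgeR called 1. Over all genes tested, DESeq2 called 9.80% and edgeR 3.80%, and the groups of 7.07% did not overlap. The 1 that passed in edgeR was Agt, angiotensinogen, which rose from 750 ± 124 to 1176 ± 97.9 CPM (SD, n = 5 each; log2 change 0.65, SE 0.138, adjusted p = 0.0311 in edgeR) with no overlap. The call was kept without NCACS mouse 12 or 13 or CACS mouse 17 and lost without any of the other 7 mice. Crp, C-reactive protein, had a log2 change of 0.06 (adjusted p = 0.925) and Hif1a, the hypoxia-inducible factor subunit, one of -0.05 (adjusted p = 0.860), and both turned sign with a mouse left out (Crp without NCACS mouse 11, 12 or 14 or CACS mouse 16 or 20, Hif1a without NCACS mouse 15 or CACS mouse 20). Timp1, a metalloproteinase inhibitor, had a log2 change of -1.90 (adjusted p = 0.186 in edgeR) on 3 to 137 counts per liver. It was -1.18 without NCACS mouse 12, and -1.12 in limma-voom.

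Glucocorticoids raise several of the same genes, so a list of 9 genes, glucocorticoid targets and the receptor gene Nr3c1, was read beside them. Mt2 was also in the acute-phase list, and Per1 in the list of clock genes. All 9 were tested, and 3 rose: Zbtb16 (log2 change 2.59), Fkbp5 (2.27) and Dusp1 (1.89), with adjusted p of 0.0222, 0.0359 and 0.0374 in edgeR. These 3 were named after their values were seen. The rest did not pass, and 2 of them, Nr3c1 and Mt2, had log2 changes below 0. Over all genes tested, edgeR called 1.89% higher. The Zbtb16 call was lost without NCACS mouse 11. The Fkbp5 call was kept without NCACS mouse 12 or CACS mouse 17 and the Dusp1 call without CACS mouse 18 or 19, and both were lost without any other mouse. A robust fit called Zbtb16 alone of these 3, and limma-voom Fkbp5 alone. CACS mouse 17 was the lowest CACS liver for Fkbp5, at 33.0 CPM, and for Zbtb16, at 7.35 CPM, both within the NCACS range, but the highest of all 10 livers for Dusp1, at 82.9 CPM. The same liver was the lowest of its group for Stat3 and Socs3 but among the highest for Cebpb. None of 16 clock genes passed in edgeR, while 5 had an unadjusted p under 0.05, which 21.6% of all genes tested reached. DESeq2 called 2 of the 16 and 9.80% of all genes tested.

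Markers of other liver cell types moved with some of these genes. The 9 markers of Kupffer cells, the macrophages of the liver, summed to 211 to 365 CPM in NCACS and 134 to 278 CPM in CACS livers, and all 9 had a log2 change below 0. One of them, Cd5l, fell (log2 change -0.90, adjusted p = 0.0374 in edgeR), where 3.80% of all genes tested passed. The sum of the list followed Stat3 over the 10 livers with a group-centred r of 0.89, Il6st with 0.82, Il6ra with 0.76, Socs3 with 0.74 and Cebpd with 0.71, and its lowest livers were NCACS mouse 14 and CACS mouse 17, those low in Stat3. The 6 monocyte markers, all with a log2 change below 0, summed to 49.1 to 144 CPM in NCACS and 33.5 to 74.9 CPM in CACS livers, and followed Il1rn with an r of 0.80. Each sum is weighted to the most abundant markers of its list. The part of these cells in the levels of Stat3, Il6st, Il6ra, Socs3, Cebpd and Il1rn was not tested.

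Of 8 neutrophil markers, 3 were tested, all 3 with a log2 change below 0, and the list summed to 4.49 to 20.9 CPM in NCACS and 2.44 to 6.32 CPM in CACS livers. Lymphocyte markers summed to 3.77 to 8.12 against 2.93 to 4.22 CPM, endothelial markers to 152 to 230 against 192 to 257 CPM, stellate cell markers to 146 to 251 against 158 to 245 CPM and bile duct markers to 33.6 to 52.7 against 20.3 to 49.4 CPM. Lifr was high where the stellate, endothelial and hepatocyte sums were low within groups (group-centred r of -0.77, -0.64 and -0.63). Such sums are weighted to the most abundant markers, such as Dcn among the stellate and Alb among the hepatocyte markers. These r values were not computed without NCACS mouse 15, which had the highest Lifr and the lowest stellate and hepatocyte sums of its group. The part of these cells in the fall of Lifr was not tested. Of the 7 hepatocyte markers, Hnf4a rose (log2 change 0.50, adjusted p = 0.0435 in edgeR), and the other 6 did not pass. Of all genes tested, 3.80% passed. With a single mouse left out, the Cd5l call was kept without NCACS mouse 14 or CACS mouse 19 and the Hnf4a call without CACS mouse 18, and each was lost without any other mouse. Hnf4a also did not pass with no filter on low counts. Cd5l, Hnf4a, Dbp, Pias1, Cish, Pim3 and Saa2 were named after their values were seen.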

How the data were processed

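Male KL mouse livers (5 NCACS, 5 CACS) were profiled by RNA-seq from stranded poly(A) libraries. The full genotype of the mice is not reported here. Per the labels and methods, the authors aligned single-end reads to GRCm38 with STAR 2.4.1d, counted reads per gene with HTSeq 0.6.1 and deposited raw counts per Ensembl gene. The annotation release and the strand setting are not given in the sources used here, so genes that overlap on opposite strands are uncertain. The overlap of Jak1 with Gm12785 is on the same strand, which no strand setting separates. The table has 0 unused columns. Symbols and exon lengths came from GENCODE M21, which lacked 1081 identifiers.

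The deposited counts went into edgeR 4.0.16, with limma 3.58.1 and DESeq2 1.42.0 as alternatives (R 4.3.3). After filterByExpr and TMM scaling, 14143 genes entered the quasi-likelihood test, with a Benjamini-Hochberg adjusted p-value of 0.05 as the threshold. A prior count of 2 was added for log2 CPM. Livers of a group differed beyond sampling noise (chi-square per degree of freedom of 46.1 or more), so none was counted as a repeat. The labels name no batch, and p-values measure the spread between mice. The fits were first tried on simulated counts in which 200 genes changed 4-fold.

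The 10 genes, the other lists and the naming rule were chosen with earlier results of these data known. The rule named the 10 genes, Crp, Hif1a and Timp1, every gene past the threshold in each pathway list (otherwise the 2 with the smallest p), and the 3 genes most like Stat3, Socs3, Osmr, Cebpd and Il1rn. Beside DESeq2 and limma-voom, the alternatives were scaling by RLE or by the upper quartile, no filter, at least 10 counts in every liver, a robust fit, and leaving out each mouse in turn.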

Additional observations from a re-analysis of the deposited data

Results flagged for a closer look

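Dixon's test for a sample far from the others of its group picked out 2 livers in 44 combinations of a gene and a group, and chance alone picks out about 1 in 20 groups, so about as many as were found. For Ctf1, NCACS mouse 13 was at 6.86 CPM and the next NCACS mouse at 4.66 CPM (gap over range of 0.718 on the log2 scale). For Tyk2, CACS mouse 19 was at 27.9 CPM and the next CACS mouse at 24.1 CPM (gap over range of 0.731).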

How the results depend on the processing

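No paired analysis was possible because no mouse number occurs in both groups. Of all genes tested, 538 passed the threshold (267 higher, 271 lower), against 1386 with DESeq2 and 178 to 519 with each mouse left out. The count fell by over 1.5 times without any mouse other than CACS mice 17 and 18. Of the 10 genes 1 passed, against 3 with DESeq2 and 0 to 2 with each mouse left out (2 without NCACS mouse 14, 0 without any other). With no filter 1 passed, but it was Il1rn (adjusted p = 0.0491) in place of Lifr (adjusted p = 0.0532). For weight change within groups, 2 genes passed, against 163 with DESeq2 and 0 to 6 with each mouse left out. Of the 10 genes and the pathway genes named beside them, recomputed under each alternative, Jak1, Il6st, Crp and Hif1a changed sign, all far from the threshold, and the cause was not tested. The log2 change of Jak1 was -0.00409 with DESeq2, -0.00413 with RLE factors, -0.0054 with upper-quartile factors, -0.000354 with no filter and -0.0161 to 0.0483 with each mouse left out. That range was -0.0244 to 0.187 for Il6st, -0.0632 to 0.287 for Crp and -0.128 to 0.0213 for Hif1a. The other 8 of the 10 genes kept their sign under all 17 alternatives. Counting error limits Cebpd (34 to 277 counts per liver) and Il1rn (39 to 551) more than Lifr (6135 to 11581), and none of the scalings moved the median of all genes by over 0.1 on the log2 scale.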

Other observations

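Some genes of the acute-phase list that did not pass the threshold in edgeR varied over a wide range within the NCACS group. Saa2, a second inducible serum amyloid A gene, was at 932.6, 2095, 12872, 11.9 and 1177 CPM in NCACS mice 11 to 15 and at 250.8, 3.86, 34.4, 103.4 and 200.3 CPM in CACS mice 16 to 20. Its log2 change was -4.85 (standard error 1.45, adjusted p = 0.0843 in edgeR with Benjamini-Hochberg adjustment and 0.00124 in DESeq2) and -3.15 without NCACS mouse 13, and it was chosen after its values were seen. A2m, alpha-2-macroglobulin, had between 0 and 519 counts per liver and was not tested. Pim3, a kinase that STAT3 induces, ranged from 24.9 to 70.9 CPM in NCACS mice and from 54.7 to 132.6 CPM in CACS mice (log2 change 1.02, adjusted p = 0.0693 in edgeR, 0.00904 in DESeq2 and 0.0360 in edgeR without NCACS mouse 11), and was also chosen after its values were seen.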
